A study of Mus musculus with 6 samples.

Results

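The collagen chain genes encode the chains from which all collagens of vertebrate tissue are built. They were selected by name and annotation from the gene table of an RNA sequencing study of mouse bone marrow-derived macrophages (BMDMs), which are grown in a dish from marrow precursors. A row was a member if its biotype was protein-coding and its symbol read Col, a number, the letter a and a number. This gave 44 genes of 54532 in the table. The samples were 3 libraries each of XWT and XKO. XWT cells carried Xbp1FL/FL, Xbp1 alleles with recombination sites and no deletion by the label. XKO cells were Xbp1ΔMf, in which Xbp1, the transcription factor that IRE1 signalling switches on when proteins misfold in the endoplasmic reticulum, is deleted in macrophages by the label. The driver of the deletion is not named in the sources used here. The mice were C57BL/6 of 32 to 34 weeks. All 6 samples received lipopolysaccharide as priming and then spent 48 h in wild-type primary hepatocyte conditioned medium, so that no group without priming or without that medium enters the comparison. The study concerns non-alcoholic steatohepatitis, and the only contrast here sets XKO cells against XWT cells.

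A collagen is a trimer of chains wound into a triple helix, which needs hydroxylated proline and lysine and is assembled in the endoplasmic reticulum before secretion. Fibrillar collagens form the fibrils of connective tissue and scar, network collagens form the sheets of basement membranes, beaded collagens form microfibrils, and FACIT collagens sit on the surface of fibrils. Fibroblasts, smooth muscle cells and related stromal cells are the best known producers of fibrillar chains, and in the fibrotic liver this role falls to activated stellate cells and myofibroblasts.

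Total counts lay between 28354866 and 30891729 per library. Xbp1, the targeted gene, stood at 159, 157 and 132 CPM (counts scaled per 1e+06 and between libraries) in XWT 1 to 3 and at 76.8, 79.4 and 76.5 CPM in XKO 1 to 3, so the groups did not overlap and transcript remained in XKO. Over all genes XWT 3 was nearer to the XKO libraries than XWT 1 and XWT 2 were. The chi-square of a pair of libraries' counts, divided by the number of genes, was 26.2 to 30.8 between XWT 3 and the XKO libraries, against 47.2 to 60.0 between the other XWT libraries and XKO. The same measure was 20.6 to 23.6 within XWT and 2.91 to 4.82 within XKO, where sampling noise alone gives about 1. Without XWT 3, calls over all genes went from 1145 lower and 860 higher to 2164 lower and 2073 higher. No label states that replicates were separate mice or cultures, so the p-values behind the calls reflect only how far these samples spread, and that spread may be technical. Of the macrophage markers, Adgre1 stood at 6614 ± 328 CPM in XWT and 5750.3 ± 216 CPM in XKO (SD, n = 3 each), and Csf1r at 3912 ± 168 and 3645 ± 59.3 CPM.

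Collagen chain reads were 0.107 to 0.134% of all counts in XWT libraries and 0.0601 to 0.0650% in XKO libraries. Of the 44 chains, 25 had enough counts to be tested, and 15 of these were lower and 2 higher in the XKO cells with an adjusted p under 0.05 (edgeR's quasi-likelihood test with Benjamini-Hochberg adjustment over 14333 genes). A chain is called lower or higher below where it passed that threshold. Among all 14333 tested genes 7.99% were called lower and 6.00% higher. The groups did not overlap in 15 tested chains that were lower and in 4 that were higher in XKO, where 18.6% of all tested genes did not overlap in the lower direction and 17.5% in the higher. The chains were taken up with results of this comparison already known, so their counts and fold changes describe them and are no independent test. In such bulk samples fewer cells of a type and less RNA per cell cannot be told apart.

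Col3a1 was picked as a chain with a log2 fold change among the lowest, and Col18a1 as the chain with the most reads. Col4a5 and Col4a6 are the 2 chains called higher. The 4 sequences below are the bases before the gene start of these 4 chains. They are RefSeq sequences of GRCm38.p6, 5′ to 3′ on the strand of the gene, with matches to the motifs searched in capitals. Col3a1 is chr1:45311288-45311537 on the plus strand, Col4a5 chrX:141475169-141475384 on the plus strand, Col4a6 chrX:141474077-141474326 on the minus strand and Col18a1 chr10:77166549-77166780 on the minus strand.
Col3a1: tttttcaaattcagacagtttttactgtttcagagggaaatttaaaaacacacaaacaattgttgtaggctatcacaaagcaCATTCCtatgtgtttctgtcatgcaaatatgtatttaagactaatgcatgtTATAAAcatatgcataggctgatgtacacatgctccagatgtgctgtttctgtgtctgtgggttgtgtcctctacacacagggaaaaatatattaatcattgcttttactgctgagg
Col4a5: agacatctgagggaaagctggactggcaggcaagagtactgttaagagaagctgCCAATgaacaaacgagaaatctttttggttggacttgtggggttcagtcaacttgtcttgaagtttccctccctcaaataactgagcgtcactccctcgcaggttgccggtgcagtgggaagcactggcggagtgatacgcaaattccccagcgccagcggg
Col4a6: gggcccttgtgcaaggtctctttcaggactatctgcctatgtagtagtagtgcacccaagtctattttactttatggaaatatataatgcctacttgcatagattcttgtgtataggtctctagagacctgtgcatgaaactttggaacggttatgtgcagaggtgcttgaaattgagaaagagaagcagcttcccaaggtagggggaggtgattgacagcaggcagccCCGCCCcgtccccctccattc
Col18a1: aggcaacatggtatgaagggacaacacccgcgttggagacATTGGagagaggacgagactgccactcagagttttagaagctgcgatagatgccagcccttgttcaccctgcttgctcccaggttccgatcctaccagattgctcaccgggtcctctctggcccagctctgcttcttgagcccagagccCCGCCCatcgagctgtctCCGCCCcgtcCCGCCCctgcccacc
In these bases the Col3a1 capitals are matches to the TEAD core and to TATAAA, the letters of a TATA box, which lie well before the start. The match of Col4a5 is a CCAAT box, that of Col4a6 a GC box, and those of Col18a1 a CCAAT box and 3 GC boxes. The boxes of Col18a1 and Col4a6 are read on the other strand, and only matches wholly within the printed bases are in capitals.

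Of the 44 chains, 35 had RefSeq windows of 300 bases (250 before and 50 after a start), 38 windows in all. The motifs searched on both strands were TATAAA for the TATA box, CCAAT for the box of that name, GGGCGG for the GC box, and further the core of the unfolded protein response element (TGACGTG), the core of TEAD sites (CATTCC) and an AP-1 site (TGANTCA), and none of these is contained in another. The GC box was in 23 of 38 collagen windows (60.5%) and in 35.7% of all 32851 windows. It was in 10 of 13 windows of chains called lower, in 2 of 2 windows of chains called higher and in 11 of 23 windows of the other chains. The 13 windows belong to 12 chains: Col6a2 has 2, and Col1a1, Col5a2 and Col12a1, also called lower, have none. Those of Col4a1 and Col4a2 share 78 bases. The core of the unfolded protein response element was in 1 collagen window, that of Col11a2 (2.63%, against 2.01% of all windows). The TATA box was in 13.2% of collagen windows and 13.6% of all, the CCAAT box in 34.2 and 37.4%, the TEAD core in 13.2 and 14.7%, and the AP-1 site in 2.63 and 7.81%. The share of G and C had a median of 61.7% in the windows of chains called lower, 50.5% in those called higher and 59.0% in the others. The median of all windows was 52.7%. The part of base composition in the GC box shares was not tested. The share of G and C was 37.7% in the Col3a1 window, 48.3% in that of Col4a6, 52.7% in that of Col4a5 and 63.3% in the Col18a1 window printed above. Among the windows of chains called lower, that of Col3a1 had the lowest share, 0 GC boxes and the only TATA box. Col18a1 has another window, at chr10:77113656-77113955 on the reverse strand, with 59.7% G and C, 0 GC boxes and 2 TEAD cores. A match is a run of letters and does not show that a factor binds there.

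Fibrillar collagens held 11 chains, of which 8 were tested, 7 were called lower and 0 higher. Their summed level was 603 ± 62.7 CPM in XWT and 61.7 ± 7.31 CPM in XKO (SD, n = 3 each), 9.76-fold lower, or 9.26-fold lower without XWT 3. Type I collagen, the main fibril former of bone, tendon, skin and scar, is a trimer of Col1a1 and Col1a2 chains. Col1a1 (ENSMUSG00000001506, chr11:94936224-94953042, plus strand) stood at 242, 284 and 305 CPM in XWT 1 to 3 and at 30.97, 23.9 and 27.7 CPM in XKO 1 to 3. Its partner Col1a2 (ENSMUSG00000029661, chr6:4504814-4541544, plus strand) stood at 172, 185 and 205 CPM in XWT and at 20.6, 15.8 and 18.3 CPM in XKO. In both genes XWT 3 was the highest and XKO 2 the lowest of all libraries, and the groups were far from overlapping. The log2 fold change of XKO over XWT was -3.33 ± 0.11 (SE) for Col1a1 and -3.36 ± 0.10 for Col1a2, which is 10.1-fold and 10.3-fold lower.

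Col3a1 makes the type III homotrimer, which shares fibrils with type I collagen in vessels, skin and early scar. Col3a1 (ENSMUSG00000026043, chr1:45311538-45349706, plus strand) stood at 43.2, 47.7 and 54.1 CPM in XWT 1 to 3 and at 2.64, 3.80 and 3.49 CPM in XKO 1 to 3. XKO 1, the library with the most Col1a1 in its group, had the least Col3a1. The log2 fold change of Col3a1 was -3.87 ± 0.13 (SE), 14.6-fold lower, the lowest value among the fibrillar chains.

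Type V collagen is a minor part of type I fibrils that sets where they start and how wide they grow. Col5a1 (ENSMUSG00000026837, chr2:27886425-28039514, plus strand) stood at 31.6, 38.8 and 41.4 CPM in XWT 1 to 3 and at 5.35, 3.41 and 4.51 CPM in XKO 1 to 3. Col5a2 (ENSMUSG00000026042, chr1:45374321-45503282, minus strand), whose end lies 24614 bases from that of Col3a1, stood at 39.4, 39.0 and 46.1 CPM in XWT and at 6.03, 4.20 and 4.54 CPM in XKO. In both, XKO 1 was the highest and XKO 2 the lowest of the XKO libraries. Col5a1 was lower by a log2 fold change of -3.07 ± 0.15 (SE) and Col5a2 by -3.08 ± 0.13, both 8.43-fold. The third chain of the type, Col5a3, went from 7.51 ± 0.48 to 1.08 ± 0.28 CPM (SD, n = 3 each; log2 fold change -2.79 ± 0.19, SE).

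The other fibrillar chains had few reads. Col11a2, a minor chain of cartilage fibrils, stood at 1.72 ± 0.24 CPM in XWT and 1.67 ± 0.08 CPM in XKO and was not called, with overlapping groups. Col27a1, another chain of cartilage, was read 20, 27 and 36 times in XWT 1 to 3, and 11, 17 and 8 times in XKO 1 to 3. It was called lower (log2 fold change -1.26 ± 0.38, SE), and this call was lost when any 1 of the 6 libraries was left out. Col11a1 (36 counts over all libraries), Col2a1 (31) and Col24a1 (2) were not tested.

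Beaded collagens held 7 chains, of which 3 were tested and all 3 were called lower. Their summed level was 102 ± 8.58 CPM in XWT and 8.40 ± 1.05 CPM in XKO (SD, n = 3 each), 12.1-fold lower, or 11.6-fold without XWT 3. The 3 tested chains build type VI collagen, the microfibrils around many cells, from 1 chain each of Col6a1, Col6a2 and Col6a3. Col6a1 (ENSMUSG00000001119, chr10:76708792-76726168, minus strand) stood at 35.3, 38.1 and 39.9 CPM in XWT 1 to 3 and at 2.35, 2.15 and 2.51 CPM in XKO 1 to 3. Col6a3 (ENSMUSG00000048126, chr1:90765923-90843971, minus strand) stood at 31.03, 32.3 and 39.0 CPM in XWT and at 3.74, 3.19 and 4.05 CPM in XKO. Both were highest in XWT 3 and lowest in XKO 2. Col6a2, 85161 bases from Col6a1 on chromosome 10, went from 29.5 ± 2.45 to 2.34 ± 0.50 CPM.

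The fold changes within type VI were unequal. Col6a1 had a log2 fold change of -4.01 ± 0.11 (SE), 16.1-fold lower, Col6a2 -3.65 ± 0.14 and Col6a3 -3.22 ± 0.12. The Col6a1 value was the lowest of the 25 tested chains. Of the 4 chains not tested, Col6a4 had 8 counts in each XWT library, and 1, 0 and 0 in XKO 1 to 3, while Col28a1 had 7 counts, Col6a6 3 and Col6a5 0 over all libraries.

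Network collagens held 9 chains, of which 5 were tested, 3 were called lower and 2 higher, the only class with calls in both directions among these chains. Their summed level was 111 ± 7.53 CPM in XWT and 92.4 ± 2.51 CPM in XKO (SD, n = 3 each), 1.20-fold lower. The Col4a1 and Col4a2 trimer is the general collagen of basement membranes. Col4a1 (ENSMUSG00000031502, chr8:11198423-11312826, minus strand) stood at 25.2, 28.2 and 29.3 CPM in XWT 1 to 3 and at 7.89, 8.33 and 7.25 CPM in XKO 1 to 3. Col4a2 (ENSMUSG00000031503, chr8:11312805-11449287, plus strand) stood at 21.1, 24.6 and 25.0 CPM in XWT and at 11.6, 10.9 and 11.5 CPM in XKO. The 3 XKO values lay close together for each gene, and the groups overlapped in neither. The log2 fold change was -1.82 ± 0.10 (SE) for Col4a1, 3.52-fold lower, and -1.06 ± 0.10 for Col4a2, 2.08-fold lower, nearer to 0 than that of any chain called lower in the fibrillar, beaded and FACIT classes except Col27a1 (-1.26), which lay between them. These genes run head to head and share 22 exon bases, so that reads in those bases could count for either when strand is not used.

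Col4a5 and Col4a6 form a trimer of smooth muscle and some epithelial basement membranes, and Col4a5 also joins Col4a3 and Col4a4 in the kidney glomerulus. Col4a5 (ENSMUSG00000031274, chrX:141475385-141689234, plus strand) stood at 45.6, 50.4 and 49.3 CPM in XWT 1 to 3 and at 66.2, 66.8 and 62.3 CPM in XKO 1 to 3. Each XKO library was above each XWT library, with a log2 fold change of 0.43 ± 0.07 (SE), 1.34-fold higher. Its neighbour Col4a6, which starts 1308 bases away on the other strand, stood at 4.19, 5.83 and 4.55 CPM in XWT and at 6.28, 7.22 and 7.15 CPM in XKO. Col4a6 was called higher with a log2 fold change of 0.50 ± 0.15 (SE), a call that was lost with DESeq2 and without XWT 1, XWT 3 or any 1 of the XKO libraries. Col4a3 and Col4a4, the head-to-head pair on chromosome 1, had only 29 and 44 counts over all libraries and were not tested.

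Col8a1, a short chain of the sheets of Descemet's membrane and vessel walls, went from 6.05 ± 0.66 to 0.801 ± 0.045 CPM (SD, n = 3 each; log2 fold change -2.91 ± 0.19, SE). Its partner Col8a2 was read 2, 5 and 5 times in XWT 1 to 3, against 0, 1 and 0 times in XKO, and Col10a1 of hypertrophic cartilage had 8 counts over all libraries.

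**Figure D1:**
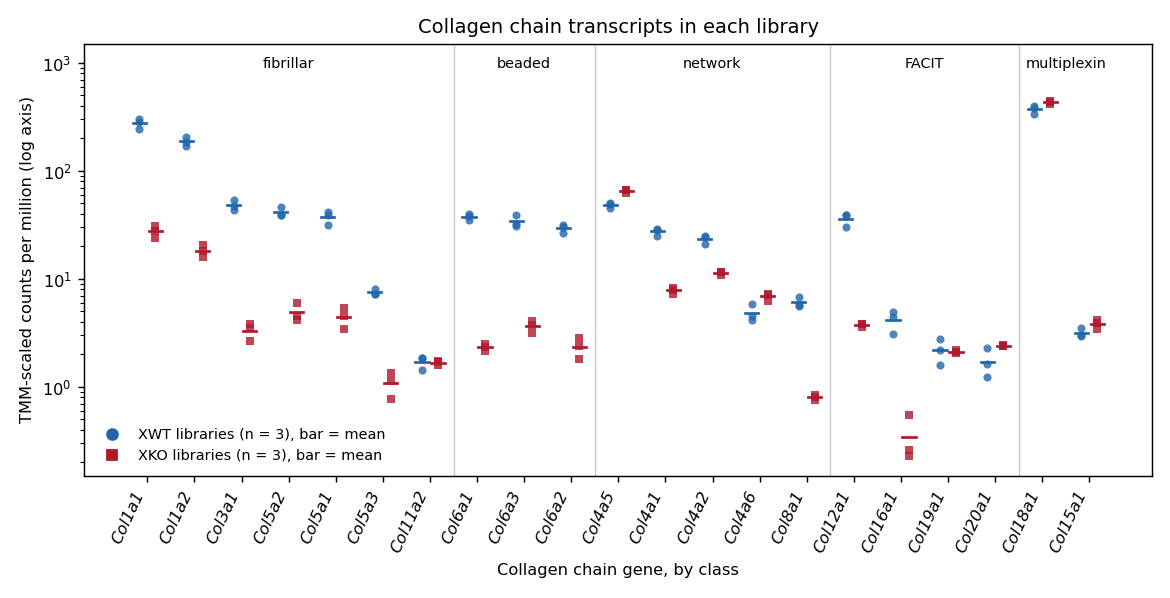
TMM-scaled CPM on a log axis for the 21 chains with a mean of at least 1 CPM, by class, with a point for each of the 3 XWT (blue) and 3 XKO (red) libraries and a bar at the group mean. The fibrillar and beaded chains sit far lower in XKO except Col11a2, whose groups overlap at 1.72 and 1.67 CPM. Col4a5, Col4a6, Col18a1 and Col20a1 sit higher in every XKO library than in any XWT library, but Col18a1 and Col20a1 were not called.

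FACIT collagens held 9 chains, of which 5 were tested, 2 were called lower and 0 higher. Their summed level was 44.7 ± 5.84 CPM in XWT and 9.73 ± 0.51 CPM in XKO (SD, n = 3 each), 4.59-fold lower, or 4.32-fold without XWT 3. Col12a1 binds type I fibrils in tendon and other loaded tissue. Col12a1 (ENSMUSG00000032332, chr9:79598991-79718831, minus strand) stood at 38.9, 30.0 and 39.0 CPM in XWT 1 to 3 and at 3.83, 3.61 and 3.82 CPM in XKO 1 to 3. XWT 2 was the lowest XWT library here, and the XKO values were close to each other. The log2 fold change of Col12a1 was -3.26 ± 0.12 (SE), 9.57-fold lower.

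Col16a1, a chain found beside fibrils and microfibrils, went from 4.15 ± 0.96 to 0.347 ± 0.181 CPM (log2 fold change -3.57 ± 0.32, SE) and was called lower. Col19a1 stood at 2.19 ± 0.59 and 2.12 ± 0.09 CPM and was not called. Col20a1 stood at 1.63, 1.246 and 2.27 CPM in XWT 1 to 3 and at 2.45, 2.37 and 2.38 CPM in XKO 1 to 3, and was not called (log2 fold change 0.48 ± 0.24, SE), although the groups did not overlap. Col20a1 shares 79 exon bases on the same strand with 9230112E08Rik, which had 166 to 244 counts per library, so its low counts are uncertain. Col9a3 had 5, 12 and 17 counts in XWT and 35, 13 and 28 in XKO and was not called, and it shares 234 exon bases with Tcfl5, which had 0 to 3 counts per library. Col14a1 (44 counts over all libraries), Col22a1 (4), Col9a2 (2) and Col9a1 (0) were not tested.

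Col18a1 carried more reads than any other chain in both groups. It makes a collagen of basement membranes with a multiply interrupted helix (a multiplexin) whose end can be released as endostatin. Col18a1 (ENSMUSG00000001435, chr10:77052178-77166548, minus strand) stood at 337, 398 and 380.5 CPM in XWT 1 to 3 and at 446, 438 and 417 CPM in XKO 1 to 3. All 3 XKO libraries were above all 3 XWT libraries, with a log2 fold change of 0.22 ± 0.07 (SE), but Col18a1 did not pass the threshold (adjusted p = 0.0587, edgeR). It passed it, in the same direction, with DESeq2, limma-voom, library size alone, no filter, and without XWT 2 or XWT 3. The other multiplexin, Col15a1, stood at 3.17 ± 0.32 and 3.83 ± 0.36 CPM (SD, n = 3 each) and was not called, with overlapping groups. Col7a1, the chain of anchoring fibrils of skin, was tested and not called at 89 counts over all libraries, and Col26a1 had 0.

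Transmembrane collagens, which stay in the cell membrane, were near the limit of detection. Of the 4 chains only Col23a1 was tested, read 16, 17 and 10 times in XWT, against 14, 15 and 15 times in XKO, and it was not called. Col17a1 had 8 counts over all libraries, Col25a1 4 and Col13a1 0.

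In all, 12 of the 44 chains had under 10 counts over the 6 libraries and are counted as chains with few counts, and 4 of these (Col9a1, Col13a1, Col26a1 and Col6a5) had 0. A count of 0 allows up to 3 counts in a library, or 0.0960 to 0.111 CPM, for counting error only. The chains nearest to that limit of 10 were Col17a1 and Col10a1 below it, with 8 counts each, and Col8a2 above it, with 13. Another 7 chains had 13 to 44 counts and did not pass the filter for the test. A chain with few counts could pass the filter through the group where it is high alone, which favours chains that differ. The 15 of 25 are therefore not a share of all 44. Col16a1, called lower, had 8, 7 and 17 counts in XKO 1 to 3. Col9a3, not called, had 5, 12 and 17 counts in XWT 1 to 3.

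**Figure D2:**
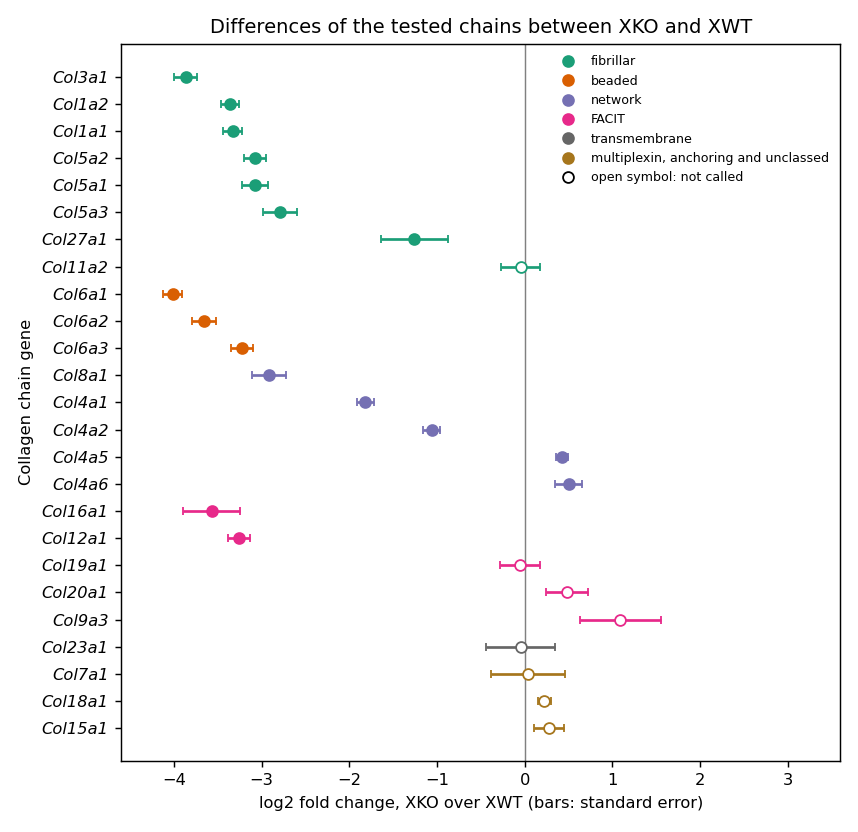
Log2 fold change of XKO over XWT for the 25 tested chains, by class, with bars of 1 standard error; filled symbols were called at an adjusted p under 0.05 and open symbols were not. The fibrillar and beaded chains lie between -2.79 and -4.01 except Col27a1 and Col11a2, the network chains lie between -2.91 and 0.50, and Col18a1 lies at 0.22.

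The make-up of the collagen reads was compared by class, with no test. Over all 44 chains the summed level was 1236 ± 104 CPM in XWT and 610.4 ± 19.8 CPM in XKO (SD, n = 3 each), 2.02-fold lower. Without Col18a1 it was 864 ± 79.9 and 177 ± 8.39 CPM, 4.88-fold lower. Fibrillar chains held 48.7 ± 1.22% of the collagen reads in XWT and 10.1 ± 1.03% in XKO. Beaded chains held 8.23 ± 0.20 and 1.38 ± 0.19%, and FACIT chains 3.63 ± 0.53 and 1.59 ± 0.09%. Network chains held 8.99 ± 0.23% in XWT and 15.1 ± 0.37% in XKO. The multiplexin and anchoring chains, almost all Col18a1 reads, went from 30.4 ± 1.40 to 71.7 ± 0.91%. These are shares of 1 total, so a lower share of fibrillar reads raises the others at an equal level.

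**Figure D3:**
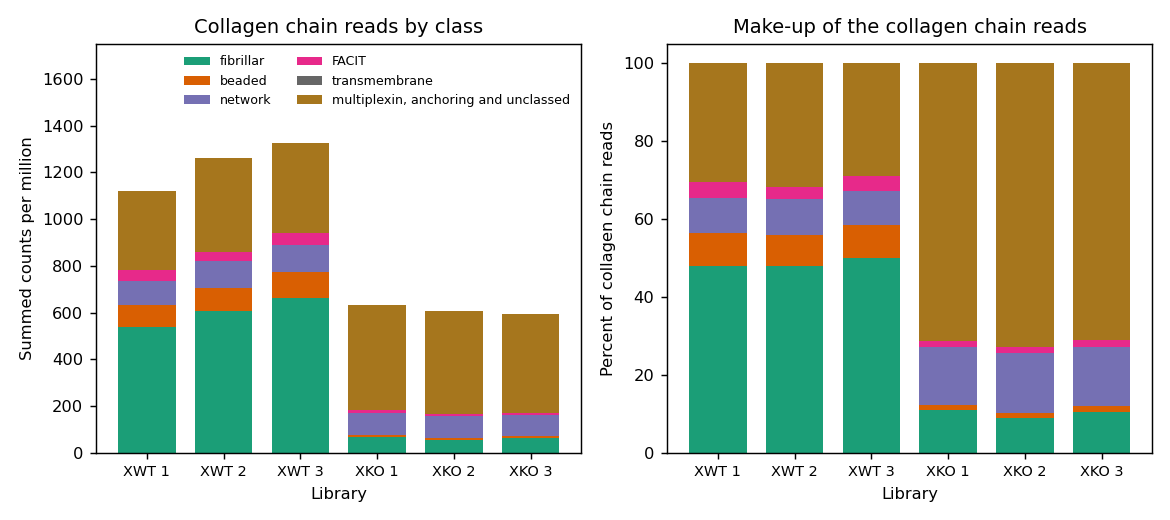
Collagen chain reads of each library by class, as summed TMM-scaled CPM on the left and as percent of the library's collagen reads on the right. Fibrillar reads make up 48.7% on average in XWT and 10.1% in XKO, while the multiplexin and anchoring class stands between 340.4 and 450.1 CPM in all 6 libraries on the left.

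Compared between genes by level per length (CPM per kilobase of the table's gene length), Col18a1 led both groups, with 52.9 ± 4.48 in XWT and 61.7 ± 2.14 in XKO (SD, n = 3 each). In XWT the next levels per length were Col1a1 at 42.2 ± 4.87, Col1a2 at 15.1 ± 1.34, Col6a1 at 8.62 ± 0.52 and Col4a5 at 7.21 ± 0.37. Below these, Col3a1 (4.92 ± 0.56), Col5a1 (4.39 ± 0.60) and Col5a2 (4.33 ± 0.42) lay within 1 SD of their neighbours, as did Col4a1 (3.69 ± 0.28), Col4a2 (3.56 ± 0.32) and Col6a2 (3.54 ± 0.29) among themselves. In XKO the level per length of Col4a5 was second at 9.69 ± 0.36, before Col1a1 at 4.19 ± 0.54, Col4a2 at 1.71 ± 0.06 and Col1a2 at 1.47 ± 0.19. Then came Col4a1 at 1.05 ± 0.0725, Col4a6 at 0.864 ± 0.0655 and Col15a1 at 0.603 ± 0.0559. Col6a1 followed at 0.534 ± 0.042, next to Col5a1 at 0.521 ± 0.114 and Col5a2 at 0.513 ± 0.101, which did not differ beyond their spread. The length used moves some of these places. With the length of the principal transcript of GENCODE M21, the XWT levels were 77.5 for Col18a1, 46.7 for Col1a1 and 35.1 for Col1a2, and Col4a5 (7.41) came after Col6a1 (9.21), Col3a1 (8.69) and Col6a2 (7.47). In XKO that length put Col1a2 (3.41) before Col4a2 (1.76), and Col3a1 (0.596) and Col6a2 (0.592) before Col6a1 (0.570).

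**Figure D4:**
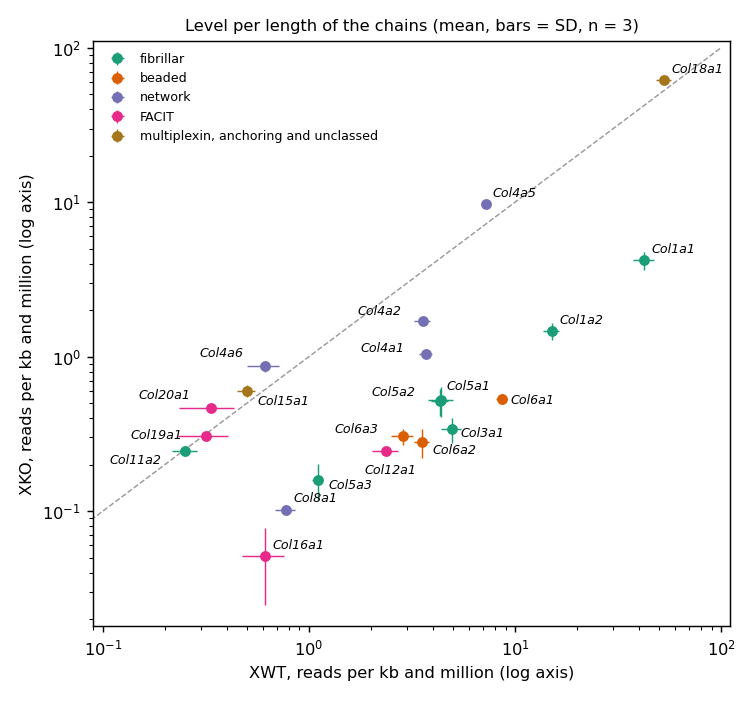
Mean level per length in XKO against XWT for the 21 chains with a mean of at least 1 CPM, both on log axes as CPM per kilobase, with bars of 1 SD (n = 3) and a dashed line of equal levels. Col18a1 and Col4a5 lie above the line at the high end, Col1a1 and Col1a2 lie below it, and Col16a1 is the lowest chain in XKO.

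The read ratio of partner chains overlapped between groups in some collagen types and not in others. These ratios were described and not tested. Col1a1 to Col1a2 was 1.48 ± 0.06 in XWT and 1.51 ± 0.01 in XKO (SD, n = 3 each), and the ratios overlapped between groups. Type I collagen holds more α1 than α2 chains, but the ratio per length depends on the gene length: in XWT it was 2.79 with the table's length and 1.33 with the principal transcript. Col5a1 to Col5a2 was 0.899 ± 0.097 in XWT and 0.898 ± 0.090 in XKO, and Col4a5 to Col4a6 was 10.1 ± 1.28 and 9.50 ± 0.93, both with overlap.

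Col4a1 to Col4a2 was 1.20, 1.15 and 1.17 in XWT 1 to 3, against 0.681, 0.766 and 0.629 in the XKO libraries, so every XKO library had more Col4a2 than Col4a1 reads and every XWT library fewer. Within type VI, Col6a3 to Col6a1 was 0.878, 0.848 and 0.978 in XWT and 1.59, 1.48 and 1.61 in XKO, without overlap. Col6a1 to Col6a2 was 1.28 ± 0.03 in XWT and 1.02 ± 0.14 in XKO, also without overlap. The ratio of Col3a1 to Col1a1 was 0.175 ± 0.006 in XWT and 0.085, 0.159 and 0.126 in XKO 1 to 3, again without overlap. The low XKO counts, 82 to 117 for Col3a1 and 66 to 77 for Col6a1, limit the precision of these ratios.

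**Figure D5:**
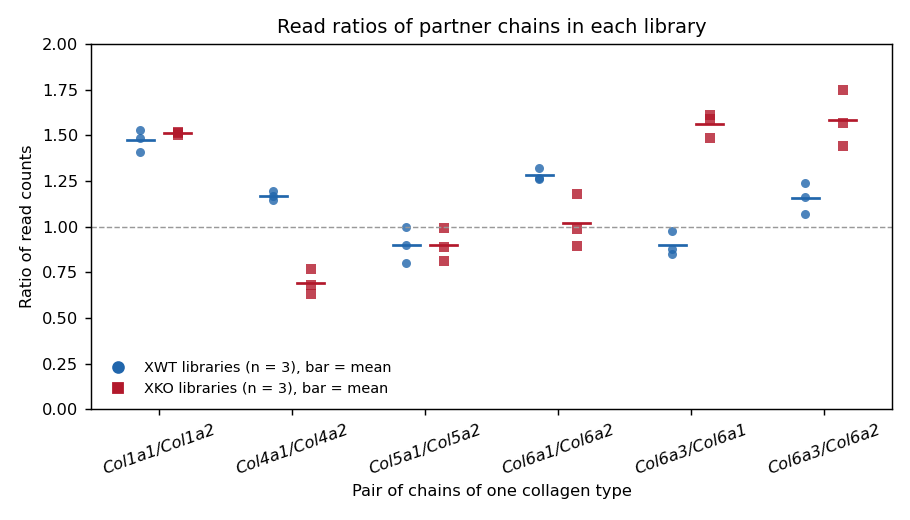
Ratio of read counts for 6 pairs of partner chains, with a point for each of the 3 XWT (blue) and 3 XKO (red) libraries, a bar at the group mean and a dashed line at equal counts. Col1a1/Col1a2 and Col5a1/Col5a2 overlap between groups, while Col4a1/Col4a2 goes from 1.17 to 0.692 and Col6a3/Col6a1 goes from 0.901 to 1.56.

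The spread among the libraries had a pattern across chains. Of the 14 chains called lower among the 21 named, XWT 3 was the highest XWT library in 14 and XWT 1 the lowest in 11, and XKO 2 was the lowest XKO library in 11. All 14 were also called lower without XWT 3, and of the chains not called, Col18a1 and Col20a1 were called higher without it.

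The other genes of the collagen pathway did not move as a block. The counts for this and the following lists stand beside 7.99% of all tested genes called lower and 6.00% called higher. Of 18 tested genes for the modification, folding and secretion of collagen, 10 were called lower and 0 higher, with a median log2 fold change of -0.28 where the median of all tested genes was 0.00. Fewer were called lower without XWT 2, XKO 1 or XKO 3 (7 each) and without XKO 2 (6). Over all genes the calls lower also went down, from 1145 to 749, 599, 598 and 532 in these settings. The 4 with the most reads were P4hb, a subunit of prolyl hydroxylase that is also a general disulfide isomerase, which fell from 565 ± 28.6 to 473 ± 9.94 CPM, and the hydroxylysine enzymes Colgalt1, Plod1 and Plod3, none of which was called. Serpinh1, the collagen chaperone HSP47, and Fkbp10, a prolyl isomerase of procollagen, were chosen after their values were seen: they had log2 fold changes of -3.44 ± 0.13 and -3.79 ± 0.205 (SE), in the range of the fibrillar chains.

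Of 10 tested genes for the trimming and crosslinking of procollagen, 9 were called lower and 1 higher, with a median log2 fold change of -1.75. The gene called higher was Tgm2, a transglutaminase with many substrates (0.34 ± 0.07, SE). Lox, which starts crosslinks by oxidising lysine, had -0.46 ± 0.08, Bmp1, the protease that removes the carboxy-terminal propeptide, -0.80 ± 0.09 and Loxl3 -0.42 ± 0.10. The other tested genes of this list had fewer reads, are named after their values were seen, and were all called lower. Their log2 fold changes were -3.79 (Loxl1), -1.50 (Pcolce), -3.21 (Loxl2), -3.44 (Adamts2), -2.95 (Adamts14) and -2.01 (Loxl4).

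Of 9 tested collagen receptors, 5 were called lower and 1 higher, with a median of -1.27, which was -0.34 with no filter on low counts and -2.14 with the stricter one. The higher call, Itga1, an integrin α chain named after its values were seen, was lost without XWT 1 and without any 1 of the XKO libraries. Itgb1, the shared β chain of the collagen integrins, stood at 582 ± 18.2 and 572 ± 13.2 CPM and Lair1, an inhibitory receptor of leukocytes, at 186 ± 14.4 and 189 ± 2.47 CPM, and neither was called. Mrc1, the macrophage mannose receptor, which also binds collagen, fell from 140.3 ± 7.48 to 58.1 ± 4.35 CPM, and Mrc2, the collagen uptake receptor of stromal cells, had a log2 fold change of -3.40 ± 0.21 (SE). Of 7 tested genes for the cleavage of collagen, 1 was called lower and 4 higher, with a median of 0.24. Without XKO 1 there were 2 higher calls, and without XWT 2, XKO 2 or XKO 3 there were 3. Calls higher over all genes went from 860 to 316 without XKO 1. They were 460 without XWT 2, 274 without XKO 2 and 300 without XKO 3. Mmp14, a membrane collagenase, rose from 355 ± 20.6 to 419 ± 14.3 CPM and Ctsk, the collagenase of osteoclasts, had 0.55 ± 0.08 (SE), while Pepd and Mmp9 were not called.

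Proteins of other families that carry a collagen-like helix were set beside the chains. Of 8 tested, 4 were called lower and 0 higher, with a median log2 fold change of -0.55. The complement chains C1qa, C1qb and C1qc, abundant products of macrophages, had log2 fold changes of -0.72 ± 0.11, -0.69 ± 0.08 and -0.72 ± 0.09 (SE), and the scavenger receptor Marco was not called. Without XWT 3 the counts of these 5 lists were 10 and 1, 9 and 1, 5 and 1, 2 and 4, and 4 and 1 lower and higher. Over all 14636 genes tested in that setting, 2164 were called lower and 2073 higher.

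Markers of fibroblasts and smooth muscle were low in the same libraries as the fibrillar chains. Of 10 tested fibroblast and stroma markers that are no collagens, 8 were called lower and 0 higher, with a median log2 fold change of -2.90, and their summed level was 187 to 213 CPM in XWT libraries and 23.9 to 26.9 CPM in XKO libraries. Sparc fell from 94.8 ± 1.09 to 8.62 ± 1.28 CPM, Postn from 46.0 ± 7.71 to 5.68 ± 0.55 CPM, Fbn1 from 24.4 ± 4.40 to 3.54 ± 0.28 CPM and Fstl1 from 21.2 ± 0.82 to 2.57 ± 0.45 CPM (SD, n = 3 each). The other markers of the list had fewer reads and are named here after their values were seen. Over all 6 libraries Pdgfrb had 801 counts, Pdgfra 174, Dcn 119 and Fbln1 42, and these 4 were called lower, with log2 fold changes of -2.06, -4.20, -2.53 and -3.20. Pdpn (524 counts) and Fap (102) were not called, Mfap5 (18), Thy1 (8) and Lum (1) were too low to be tested, and no marker of the list was at 0. Of 5 tested smooth muscle and myofibroblast markers all 5 were called lower, with a median of -4.32 and a summed level of 69.3 to 78.6 CPM in XWT and 7.41 to 8.96 CPM in XKO. Acta2, smooth muscle actin, fell from 52.4 ± 4.19 to 6.56 ± 0.85 CPM, and Tpm2, Myl9 and Actg2, further genes of the contractile apparatus, had log2 fold changes of -2.89 ± 0.181, -4.32 ± 0.224 and -4.63 ± 0.282 (SE). The part of such cells in the collagen values was not tested.

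Markers of bone marrow stroma were called in both directions. Of 5 tested, 4 were called lower, Cxcl12, Prrx1 and Vcam1 among them, and Kitl higher, with a median log2 fold change of -2.73. The summed level of the list, Kitl included, was 32.4 to 42.1 CPM in XWT and 38.3 to 42.3 CPM in XKO. None of the 2 tested osteoblast and chondrocyte markers (Runx2 and Comp) was called, and Sp7 and Alpl, with 38 and 31 counts over all libraries, were not tested. Of 4 tested endothelial markers 1, Pecam1, was called lower (0 without XKO 2) and Vwf, Kdr and Cdh5 were not called, at a summed level of 87.9 to 95.3 CPM in XWT and 93.0 to 99.2 CPM in XKO. All 8 hepatocyte markers, Alb, Apoa1, Ttr and Serpina1a among them, had 0 counts in every library, as had Lrat of stellate cells, Cidec and Lep of adipocytes and Epcam, Krt8 and Krt18 of epithelium. The tested stellate marker Hgf and the tested adipocyte marker Fabp4 were not called, and Ngfr, Gfap and Reln of stellate cells, Plin1 and Adipoq of adipocytes and Cdh1 and Krt19 of epithelium had 1 to 29 counts each and were not tested. Of 9 macrophage markers, 1, Lyz2, was called lower and 0 higher. Without XWT 3 these counts were 6 and 1, but calls over all 14636 genes tested then also rose, to 2164 lower and 2073 higher. The summed level of the macrophage markers was 40441 to 48676 CPM in XWT and 26159 to 27900 CPM in XKO, without overlap. Lyz2 alone fell from 31140.2 ± 3553 to 14274 ± 583 CPM. Cd68 was not called. Over the fibroblast and smooth muscle lists the counts called lower were 8 and 5 without XWT 3 too.

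By the adjusted p of the authors' deposited table, 15 chains were lower and 2 higher in XKO. The authors' deposited table called Col6a4 in place of Col27a1 among the lower chains, and Col18a1 (adjusted p = 0.0366) in place of Col4a6 (adjusted p = 0.0556) among the higher. The log2 fold changes of the tested chains there were within 0.0188 of those given here.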

How the data were processed

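RNA of 6 samples, 3 XWT and 3 XKO, grouped by their titles, was sequenced from NEBNext Ultra libraries, per the labels' protocols. Bowtie 0.12.2 and the builds mm8 and mm10 appear, without a stated role, in the submitters' processing notes. Counter, annotation release and strand setting: not given in the sources used here. Reads shared by overlapping genes are thus uncertain. The 44 chains have the coordinates of GENCODE M21 (GRCm38).

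The authors deposited 1 table. Its count columns hold unscaled whole numbers of reads for each gene, per the file headers. Its FPKM columns and its scaled group means, a signal, were deposited by the authors and not used in a test. The authors' log2 fold change, p-value and adjusted p-value columns were compared with the fit, per the file headers. The tool behind them was not named.

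Counts were tested with edgeR 4.0.16 in R 4.3.3: filterByExpr kept 14333 of 54532 genes (29101 had no count), TMM scaled the libraries, and a robust quasi-likelihood fit with group as its only term compared XKO with XWT (4 residual degrees of freedom, biological coefficient of variation 0.0865). P-values of all tested genes were adjusted together (Benjamini-Hochberg), with a threshold of 0.05. Dividing a log2 fold change by the root of its F statistic gave the standard error. CPM are TMM-scaled, and a level per length divides them by the table's gene length in kilobases. The script was tested on simulated data.

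Every chain with a mean of at least 1 CPM over 6 libraries is named, the 12 highest with all values, and of each list the 4 highest members. Others are named after their values were seen. The nearest chains were Col11a2 above and Col27a1 below that mean. Members and lists were chosen with earlier results of these data known. Of the listed symbols, Ctage5 and Mmp1a were not used here. Alternatives were DESeq2 1.42.0 and limma-voom (limma 3.58.1), other scaling and filters, a replicate block and leaving out each library. The length of the principal transcript, and the lists and class sums without XWT 3, were added after the data were seen.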

Additional observations from a re-analysis of the deposited data

How the results depend on the processing

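The count of chains called lower was 15, and 14 to 17 over the alternatives, with 15 under DESeq2, limma-voom and DESeq2's size factors, 14 with library size alone or a stricter filter and 17 with no filter. The count called higher was 2, and 3 with library size alone, no filter or limma-voom. Equal counts did not always mean equal chains. With DESeq2 the 15 lower chains held Col6a4 in place of Col27a1, and the 2 higher were Col4a5 and Col18a1. Leaving out 1 library gave 14 lower chains each time and 1 to 3 higher ones: 3 when XWT 2 or XWT 3 was omitted, otherwise 1. Col4a5 was among the higher chains each time, and Col4a6 only without XWT 2. Over all genes these fits called 532 (without XKO 2) to 2164 (without XWT 3) lower and 274 to 2073 higher. Of the values of named chains under the alternatives, 255 kept their direction and side of the threshold, 7 passed it, 6 no longer did and 5 changed sign. Col19a1 (-0.05) went to 0.010 with library size alone and 0.16 without XWT 3 (range over left-out libraries -0.23 to 0.16). Col11a2 (-0.05) went to 0.018 with library size alone, 0.0060 without XWT 2 and 0.0097 without XWT 3 (range -0.16 to 0.0097). None of these was called. Col20a1 was called without XWT 3 (0.74, adjusted p = 0.0286, edgeR). Col18a1 had log2 fold changes of 0.15 to 0.29 and adjusted p of 0.0280 to 0.226 (edgeR, DESeq2 and limma-voom) over the alternatives. The Col1a1 to Col1a2 ratio per length in XWT moved from 2.79 to 1.33 with the principal transcript's length, a setting chosen after seeing the data. The causes were not tested.

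Over all genes, library size alone called 749 lower and 1158 higher against 1145 and 860. Same-numbered libraries of XWT and XKO did not deviate together over all genes (correlations -0.080, -0.027 and -0.055). A weak shared effect would not show in these values, so they do not settle whether the numbers pair the samples, which no label states. With the replicate number as a block, 15 chains were lower and 2 higher, and the 21 named chains kept their calls. With 3 libraries per group, few counts limit what could be called, as for Col7a1 (89 counts over all libraries) and Col23a1 (87).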
